A study of Homo sapiens with 9 samples.

Results

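The 32 genes described here encode SR proteins (13 genes: SRSF1 to SRSF11, TRA2A and TRA2B) and hnRNP proteins (19 genes, from HNRNPA0 to HNRNPUL1). The families are not complete: SRSF12 and HNRNPUL2, for example, were examined with a list of related genes instead. The 32 genes were taken by name from the 20046 protein-coding genes of GENCODE version 44 on the hg38 build. No measured value served as a criterion, but earlier results of these data were known when the choice was made. The study profiled POLR2A, which forms the catalytic core of RNA polymerase II, by ChIP-seq in HEK293T, a human embryonic kidney cell line. Its 9 samples fell into 3 conditions: cells with a control shRNA, whose genotype is labelled wildtype, cells with U2AF1 knockdown and cells with DHX9 knockdown. U2AF1 is a splicing factor that recognises the AG at 3′ splice sites, and DHX9 is a helicase that unwinds RNA and RNA-DNA hybrids. Each condition had 2 ChIP samples, made with the same POLR2A antibody, and 1 input sample, and the deposited result was 1 list of peaks per condition. The labels do not give the shRNA sequences, the remaining level of U2AF1 or DHX9, or whether clones or pools of cells were used.

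SR proteins bind exonic enhancers through RNA recognition motifs and recruit the splicing machinery through a domain rich in arginine and serine. Many hnRNP proteins coat nascent RNA, and several of them silence exons that SR proteins would enhance. Both families are abundant in dividing cells, and many of their genes adjust their own mRNA level through exons whose inclusion leads to decay of the transcript. RNA polymerase II tends to collect a short distance downstream of active transcription starts, where it pauses before it enters the gene.

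The start regions of 4 genes are shown first. Among members with a peak within 1000 bp of a transcript start in all 3 lists, the peaks of these 4 ranked highest on average. HNRNPA0, with high peaks in every list, was not eligible, because its summits in the knockdown lists lay just beyond that limit. Each line holds 150 bases of the hg38 reference, 5′ to 3′ on the strand of the gene, from 120 bases before the start of the MANE Select transcript (the reference transcript of the gene) to the 30th transcribed base. Capitals mark matches, on either strand, to 7 short promoter motifs: TATAAA (the TATA box), CCAAT (the site of NF-Y), GGGCGG (the GC box), CCGGAAG (a core bound by ETS factors), GCATGCGC (bound by NRF1), TGACGTCA (the cAMP response element) and AAGATGGC (bound by YY1). On the opposite strand a GC box reads CCGCCC. The reverse of the NF-Y motif reads ATTGG.
HNRNPAB (chr5:178204413-178204562, plus strand): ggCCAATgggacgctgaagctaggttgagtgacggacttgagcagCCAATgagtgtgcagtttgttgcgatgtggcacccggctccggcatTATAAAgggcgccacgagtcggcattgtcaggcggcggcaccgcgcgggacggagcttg
SRSF2 (chr17:76737302-76737451, minus strand): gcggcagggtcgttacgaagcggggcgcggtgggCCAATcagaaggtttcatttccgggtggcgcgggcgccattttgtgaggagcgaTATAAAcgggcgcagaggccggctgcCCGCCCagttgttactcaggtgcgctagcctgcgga
SRSF6 (chr20:43457776-43457925, plus strand): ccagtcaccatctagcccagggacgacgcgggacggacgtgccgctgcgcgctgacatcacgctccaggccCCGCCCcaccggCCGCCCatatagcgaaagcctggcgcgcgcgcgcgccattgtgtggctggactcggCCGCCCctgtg
SRSF7 (chr2:38751332-38751481, minus strand): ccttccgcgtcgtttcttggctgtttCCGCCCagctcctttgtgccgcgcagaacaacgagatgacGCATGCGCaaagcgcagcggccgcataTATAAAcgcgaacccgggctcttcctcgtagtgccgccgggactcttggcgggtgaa

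The 4 longest genes without a peak in any list are shown for comparison, drawn in the same way. HNRNPUL1 holds a pair of overlapping CCAAT matches on opposite strands, printed as 1 run of capitals, and HNRNPM holds no match in this stretch.
HNRNPC (chr14:21269413-21269562, minus strand): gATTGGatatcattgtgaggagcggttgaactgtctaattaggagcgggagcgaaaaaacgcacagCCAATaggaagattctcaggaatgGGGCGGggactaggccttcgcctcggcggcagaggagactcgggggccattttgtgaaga
HNRNPUL1 (chr19:41264252-41264401, plus strand): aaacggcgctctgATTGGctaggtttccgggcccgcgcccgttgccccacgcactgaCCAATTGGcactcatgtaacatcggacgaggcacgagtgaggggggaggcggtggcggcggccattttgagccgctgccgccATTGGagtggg
HNRNPM (chr19:8444855-8445004, plus strand): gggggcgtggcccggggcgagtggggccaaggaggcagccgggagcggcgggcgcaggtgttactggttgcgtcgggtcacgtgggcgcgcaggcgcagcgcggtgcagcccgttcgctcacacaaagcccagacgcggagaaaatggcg
HNRNPLL (chr2:38602899-38603048, minus strand): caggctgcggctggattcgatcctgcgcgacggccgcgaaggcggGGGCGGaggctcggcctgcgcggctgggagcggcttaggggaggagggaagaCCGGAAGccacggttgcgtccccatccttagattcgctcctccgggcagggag

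There were 2757 peaks for control shRNA, 1730 for U2AF1 knockdown and 4443 for DHX9 knockdown. The sequencing depth behind them is unknown. Names of the control peaks carry a suffix that reads as replicate 1, so it is not known whether 1 or both control libraries gave that list. With 1 list per condition there is no replicate check, no error could be given for any value, and no difference between conditions was tested. A gene without a listed peak fell below the authors' calling threshold in that list, which does not show that polymerase was absent. Of the HEK293T markers examined, VIM had a start peak in all 3 lists and KRT8, KRT18 and PAX2 had none. The VIM summits lay 1102, 1123 and 1110 bp downstream of its MANE Select start and counted through another annotated start. The blood cell genes PTPRC, CD3E and HBB had no start peak either.

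A start peak is a peak whose summit, the position of its highest signal, lay within 1000 bp of any annotated transcript start of the gene. In the control list 16 of the 32 genes (50.0%) had a start peak, against 12.6% of all protein-coding genes. In the U2AF1 knockdown list 9 of 32 (28.1%) had one, against 6.64% of all protein-coding genes. In the DHX9 knockdown list the count was 19 of 32 (59.4%), against 21.0%. The family thus had a larger share of listed genes than the annotation as a whole in each list, though the annotation includes genes that are silent in these cells and no measure of expression was used. The 3 background shares follow the lengths of the lists, as do the members' counts. When each list was limited to its 1730 most significant peaks, the members with a start peak numbered 14, 9 and 14, in the same order of lists. At equal length the DHX9 knockdown count was thus no longer above that of the control. The shares of all protein-coding genes at equal length are not given, so these counts stand without a background. When peaks inside the gene but farther from a start are added, the counts were 16, 10 and 20 of 32, against 13.2%, 7.34% and 22.2% of all protein-coding genes. The only added gene was HNRNPA0, in both knockdown lists.

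The SR protein genes had start peaks more often than the hnRNP genes in each list. Of the 13 SR protein genes, 9 (69.2%) had a start peak in control cells, 6 (46.2%) after U2AF1 knockdown and 11 (84.6%) after DHX9 knockdown. Of the 19 hnRNP genes, 7 (36.8%), 3 (15.8%) and 8 (42.1%) had one. All of the genes from SRSF1 to SRSF9 had a start peak in the control list, while SRSF10, SRSF11, TRA2A and TRA2B had none there.

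**Figure D1:**
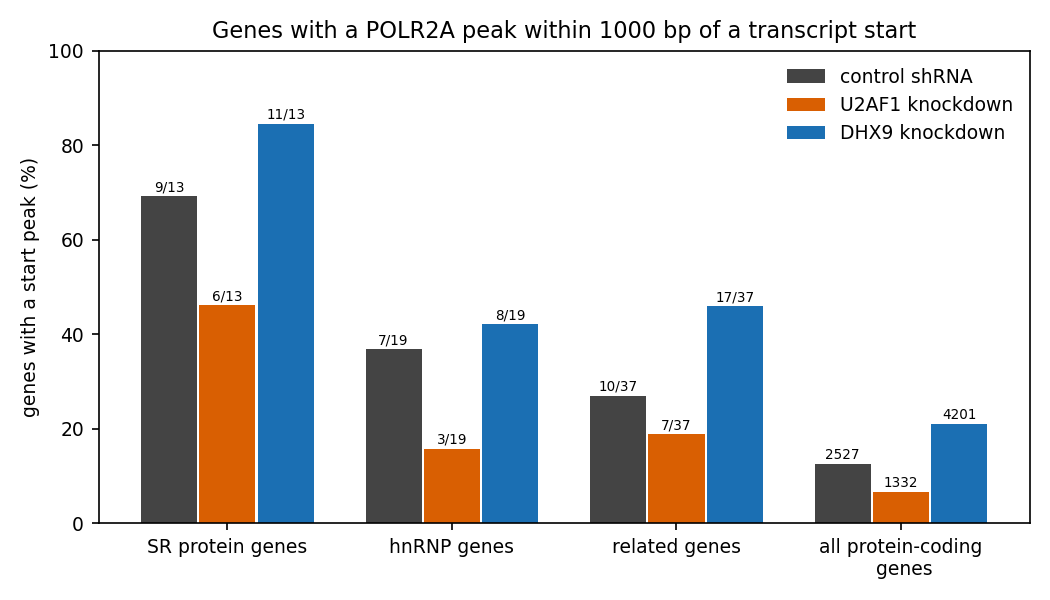
Share of genes with a POLR2A start peak (vertical axis, percent) in 4 gene sets and 3 peak lists; numbers over the bars are genes with a start peak, out of the genes in the set for the first 3 sets and out of 20046 for all protein-coding genes. The SR protein bars, at 69.2%, 46.2% and 84.6%, stand above the hnRNP bars, at 36.8%, 15.8% and 42.1%, in the list of each condition.

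In all 3 lists, 9 of the 32 genes (28.1%) had a start peak, against 4.03% of all protein-coding genes. These were SRSF1, SRSF2, SRSF5, SRSF6, SRSF7 and SRSF9 of the SR proteins and HNRNPAB, HNRNPH1 and HNRNPH3 of the hnRNP proteins. The height of a peak is given as its fold enrichment, the authors' own ratio to the background of the peak caller. Since that background differs between libraries, a peak is also given its rank by fold within its list, as a rank percent, 100 times the rank divided by the number of peaks, so that small values are high. Ranks in lists of different lengths cannot show whether a peak changed between conditions. The median rank percent of the members' highest start peaks was 25.1 for control shRNA, 22.7 for U2AF1 knockdown and 32.1 for DHX9 knockdown. Over all protein-coding genes with a start peak the medians were 45.8, 41.6 and 45.5. Among the top 10% of peaks lay the start peaks of 5 of 16 members (31.2%), 3 of 9 (33.3%) and 6 of 19 (31.6%). The corresponding shares of all protein-coding genes with a start peak were 8.43%, 8.26% and 9.64%. Start peaks of the members had median widths of 429, 360 and 378 bp, in the same order of lists, against 322, 281 and 329 bp over all coding genes with a start peak.

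HNRNPAB, an RNA-binding protein that also goes by CBF-A, had the highest start peak of the members in the control and DHX9 knockdown lists. It reached 10.5-fold enrichment with control shRNA (rank 95 of 2757), 10.2-fold after U2AF1 knockdown (rank 75 of 1730) and 15.7-fold after DHX9 knockdown (rank 79 of 4443). The control peak spanned chr5:178204247-178204839, with its summit in the first exon, in the 5′ UTR, 42 bp downstream of the start. In the knockdown lists the summit was at 38 and 43 bp. The gene stood among the top 5% of peaks in each list, with rank percents of 3.45, 4.33 and 1.78.

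SRSF2, known as SC35 and a marker of nuclear speckles, had start peaks of 7.92-fold (rank 168) with control shRNA, 10.2-fold (rank 74) after U2AF1 knockdown and 9.09-fold (rank 274) after DHX9 knockdown; triplets of values below keep this order. The control peak spanned chr17:76736995-76737472, and the 3 summits lay 39, 34 and 35 bp downstream of the start, in the 5′ UTR of exon 1. The DHX9 knockdown list held a second peak of 4.31-fold (rank 3453) with its summit at -476 bp. MFSD11, a gene on the opposite strand, starts at -788 bp, so this second peak lies between the starts of both genes. SRSF6, which regulates among others the splicing of tau, had start peaks of 8.93-fold (rank 133), 7.41-fold (rank 180) and 9.61-fold (rank 228), with summits at 44, 38 and 43 bp. Its control peak spanned chr20:43457714-43458138. It too had a second peak upstream in the DHX9 knockdown list, of 3.99-fold (rank 3766), with its summit at -521 bp. Between 52.0% and 57.6% of the SRSF6 start peaks matched the processed pseudogene SRSF6P2 on chromosome 17 at 96.7% to 96.8% identity, and no list had a peak at that copy. SRSF7, known as 9G8 and distinguished from other SR proteins by a zinc knuckle, had start peaks of 6.68-fold (rank 250), 8.52-fold (rank 122) and 9.36-fold (rank 248). Its control peak spanned chr2:38751080-38751512, and its summits lay at 40, 44 and 33 bp.

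HNRNPH3 and HNRNPH1 belong to the hnRNP H group, which binds runs of G. HNRNPH3 had start peaks of 5.84-fold (rank 403), 5.85-fold (rank 429) and 8.25-fold (rank 383). Its summit lay 18 and 15 bp downstream of the start in the first 2 of these lists and at -70 bp, upstream, after DHX9 knockdown. HNRNPH1 had start peaks of 4.47-fold (rank 1090), 5.93-fold (rank 392) and 5.13-fold (rank 2429), with summits at 49, 29 and 32 bp. The close relative HNRNPH2, on chromosome X, had no peak in any list.

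SRSF5, SRSF1 and SRSF9 were also in all 3 lists. SRSF5, which takes part in mRNA export as well as splicing, had 5.00-fold (rank 745), 4.74-fold (rank 867) and 8.11-fold (rank 422). SRSF1, the founding SR protein ASF/SF2, had 4.20-fold (rank 1323), 3.14-fold (rank 1507) and 5.41-fold (rank 2095). Its peak in the U2AF1 knockdown list was the weakest start peak of a member there, with a −log10 q of 1.61. SRSF9 had a start peak of 3.75-fold (rank 1736), 4.80-fold (rank 838) and 6.56-fold (rank 1035), with summits at 100, 73 and 106 bp. A longer annotated SRSF9 transcript begins near the start of DYNLL1, and peaks 69 and 56 bp from the DYNLL1 start, of 4.30-fold in the control list and 4.86-fold in the DHX9 knockdown list, counted for SRSF9 as well.

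**Figure D2:**
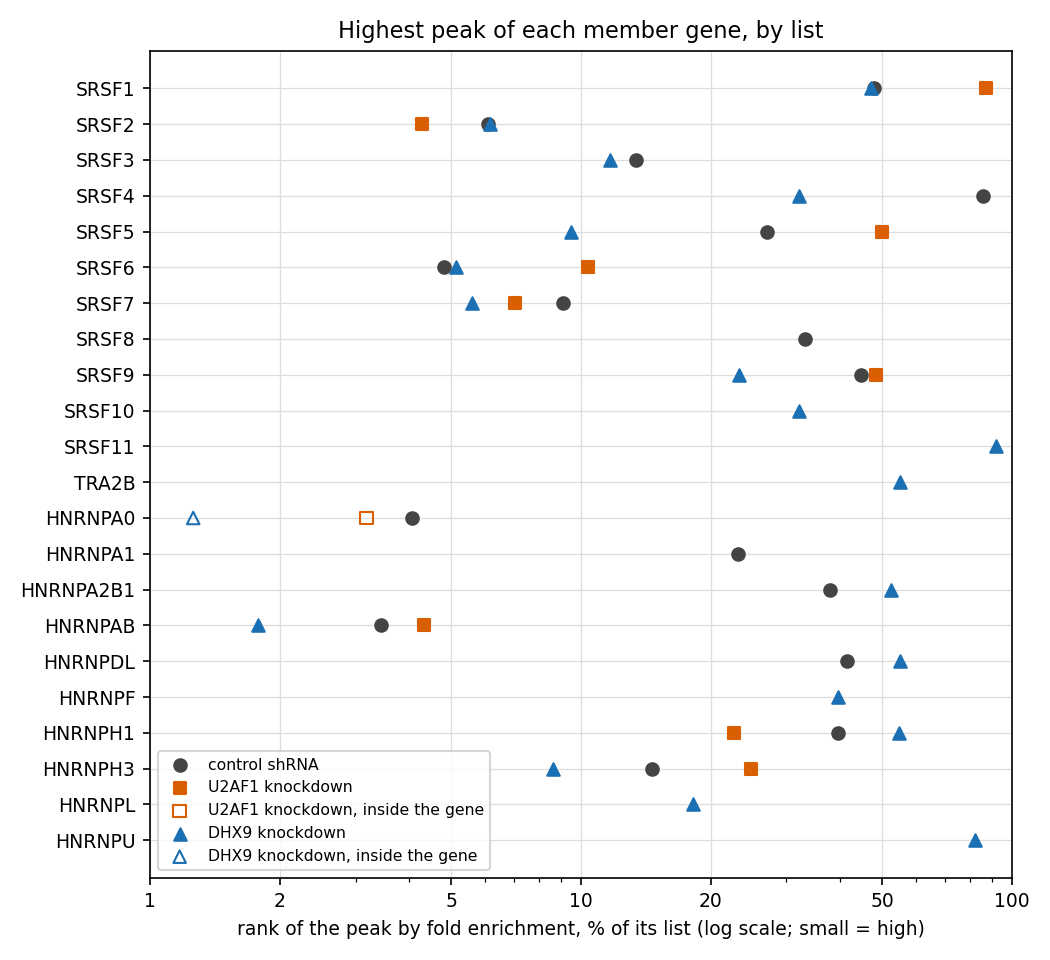
Rank of the highest peak of each member that had one, as a percent of its list (horizontal axis, log scale, small values are high); filled symbols are start peaks and open symbols are peaks inside the gene. HNRNPAB, SRSF2, SRSF6, SRSF7 and HNRNPA0 sit at the left, at 10.4 or below in each list, and for SRSF9 the control symbol is the peak near DYNLL1.

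Of the 16 members with a start peak in the control list, 9 (56.2%) also had one in the U2AF1 knockdown list, against 35.4% of all genes with a control start peak. Of the same 16, 13 (81.2%) had one in the DHX9 knockdown list, against 75.5%. Both comparisons share the control list. All 9 members with a start peak in the U2AF1 knockdown list also had one in the DHX9 knockdown list (against 81.3% of all genes), where they made up 9 of 19. No member had a start peak in the U2AF1 knockdown list alone, against 0.808% of all protein-coding genes.

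SRSF3, SRSF4, HNRNPA2B1 and HNRNPDL had a start peak in the control and DHX9 knockdown lists and none in the U2AF1 knockdown list. Absence from that list, the shortest, is not particular to these genes. Of all genes with a control start peak, only 35.4% had one there, and the share of all genes with this exact pattern is not given. SRSF3, the smallest SR protein, had 5.97-fold (rank 371) in the control list and 7.74-fold (rank 518) in the DHX9 knockdown list, with summits at 37 and 36 bp. In the U2AF1 knockdown list the nearest summit to its start was 392 kb away. It was the highest ranking of these 4 genes in both lists. SRSF4 had a weak control peak of 2.95-fold (rank 2364, −log10 q 4.22) and a peak of 6.01-fold (rank 1427) in the DHX9 knockdown list, with summits at 138 and 133 bp. HNRNPA2B1, which reads the same family of UAG-containing RNA elements as HNRNPA1, had 4.52-fold (rank 1045) and 5.20-fold (rank 2336). HNRNPDL, a relative of HNRNPD, had 4.39-fold (rank 1145) at 348 bp in the control list. The DHX9 knockdown list held a pair of HNRNPDL peaks, of 5.10-fold (rank 2444) at 1174 bp, in coding sequence of exon 1, and of 4.79-fold (rank 2886) at 309 bp. ENOPH1 starts on the opposite strand at -128 bp from the HNRNPDL start.

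In the control list alone, 3 of 32 genes (9.38%) had a start peak, against 2.66% of all protein-coding genes: SRSF8, HNRNPA1 and HNRNPA0. HNRNPA1, which binds exonic and intronic silencers, had a peak of 5.22-fold (rank 638) with its summit at 70 bp, at chr12:54280626-54280928. CBX5 starts on the opposite strand at -604 bp. In the knockdown lists the nearest summit to the HNRNPA1 start was 1548 kb (U2AF1 knockdown) and 605 kb (DHX9 knockdown) away. SRSF8, an intronless gene derived from an SRSF2 transcript, had a peak of 4.70-fold (rank 915) and 820 bp at chr11:95066853-95067672, with its summit at 172 bp. That interval matched the pseudogene SRSF8BP on chromosome 11 at 90.8% identity over 819 bp and SRSF8CP on chromosome 7 at 93.6% over 734 bp. The placement of reads at SRSF8 is therefore uncertain, and no list had a peak at the copies.

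HNRNPA0, which binds AU-rich elements in mRNA, was in the control-only group through the 1000 bp limit. Its control peak was 9.60-fold (rank 112), 1560 bp wide at chr5:137753160-137754719, with the summit 953 bp downstream of the start, just inside the limit. Its peak in the U2AF1 knockdown list was 11.1-fold (rank 55) with the summit at 1033 bp, just outside. In the DHX9 knockdown list it was 20.1-fold (rank 56), the highest peak of any member in that list, with the summit at 1037 bp. HNRNPA0 has a single exon, and all 3 summits lay in its coding sequence. No other place in the genome matched 100 bp or more of these peaks at 90% identity or more.

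**Figure D3:**
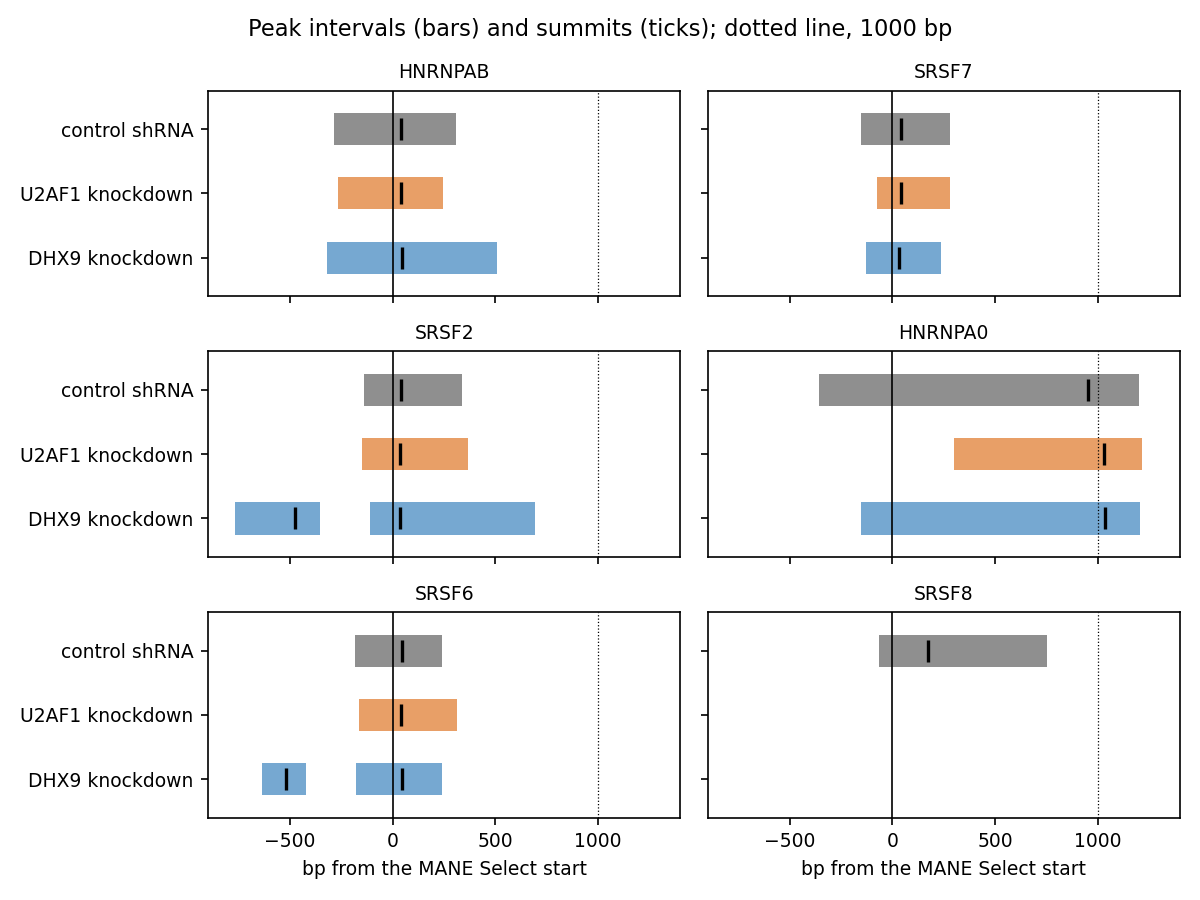
Extent of the peaks (bars) and their summits (ticks) relative to the MANE Select start (horizontal axis, bp, positive is downstream) in 6 genes and 3 lists; the dotted line is the 1000 bp limit. The summits of the highest peaks of HNRNPAB, SRSF2, SRSF6 and SRSF7 line up near the start. Second peaks of SRSF2 and SRSF6 in the DHX9 knockdown list lie upstream, with summits at -476 and -521 bp. The summits of HNRNPA0 lie at 953, 1033 and 1037 bp, and SRSF8 has a peak in the control list only.

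In the DHX9 knockdown list alone, 6 of 32 genes (18.8%) had a start peak, against 10.1% of all protein-coding genes. Of the 16 members without a control start peak, these 6 make up 37.5%, against 13.1% of all coding genes without one. HNRNPL, which binds CA repeats, was highest of them at 7.0-fold (rank 807), with the summit at 88 bp in coding sequence of exon 1. A stretch of 243 bp of this peak matched the pseudogene HNRNPLP2 on chromosome 15 at 91.4% identity, where no list had a peak. SRSF10, which turns into a general splicing repressor when it loses its phosphates after heat shock, had 6.01-fold (rank 1428) at 61 bp. HNRNPF, of the hnRNP H group, had 5.70-fold (rank 1756) at 50 bp, and TRA2B, which binds GAA-rich enhancers, had 5.10-fold (rank 2444) at 39 bp. HNRNPU, a protein of the nuclear scaffold, had 4.12-fold (rank 3657) at 141 bp, and SRSF11, known as p54, had 3.53-fold (rank 4094) at 207 bp. HNRNPL thus ranked in the upper part of the longest list, while HNRNPU and SRSF11 were near its end. When each list was limited to its 1730 most significant peaks, TRA2B, HNRNPF, HNRNPU and SRSF11 left the DHX9 knockdown list and HNRNPL and SRSF10 stayed. HNRNPDL, listed in control cells too, also left it.

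For 10 of the 32 genes (31.2%) no list held a peak at a start or inside the gene, against 73.6% of all protein-coding genes. TRA2A, the paralog of TRA2B, was the only SR protein gene among them. The other 9 were HNRNPA3, HNRNPC, HNRNPD, HNRNPH2, HNRNPK, HNRNPLL, HNRNPM, HNRNPR and HNRNPUL1. HNRNPC binds runs of U and competes with the U2AF complex at cryptic exons, and HNRNPK binds runs of C. HNRNPD, known as AUF1, promotes decay of mRNA with AU-rich elements, and HNRNPLL controls the splicing of PTPRC in lymphocytes. In the control list the nearest summit to the starts of these 10 genes lay between 17.2 kb (HNRNPH2) and 1120 kb (HNRNPA3) away. In the DHX9 knockdown list the nearest lay between 39.2 kb (HNRNPC) and 1191 kb (HNRNPH2). HNRNPK had its nearest summit 59.0 kb away in the control list and 58.9 kb away in both knockdown lists. Across the 32 genes, 7 have a coding gene on the opposite strand that starts within 1000 bp, so a start peak there may belong to either gene: SRSF2, HNRNPA1, HNRNPA2B1, HNRNPDL, HNRNPH2, HNRNPH3 and HNRNPK. HNRNPH2 and HNRNPK had no peak in spite of the neighbouring start.

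Summits of the members lay mostly downstream of the start. For members and all coding genes alike, the peak taken here was the highest with its summit within 1000 bp of the MANE Select start. The median offset was 44 bp with control shRNA, 38 bp after U2AF1 knockdown and 51 bp after DHX9 knockdown. Over all coding genes with such a peak the medians were 49, 59 and 46 bp, so the members did not stand apart in the median. They differed in the spread: 9 of 16 members (56.2%), 7 of 9 (77.8%) and 9 of 19 (47.4%) had the summit 20 to 60 bp downstream. The corresponding shares of all coding genes were 24.5%, 19.3% and 21.9%. Upstream summits were rare among the members, with 16 of 16, 9 of 9 and 18 of 19 downstream, against 67.1%, 71.3% and 65.5% of all coding genes. The band of 20 to 60 bp was chosen after the values were seen.

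For the 9 members in all 3 lists, the distance between the outermost of the 3 summits had a median of 11 bp, from 5 bp in SRSF2 and HNRNPAB to 88 bp in HNRNPH3. It was at most 20 bp in 6 of the 9 (66.7%). Over the 735 coding genes with a peak near the MANE Select start in every list the median was 70 bp, and 112 of them (15.2%) were within 20 bp. The summit thus lay at a similar position in the 3 lists for most of these members. Start peaks of the members also ranked higher within the lists than those of other genes, and the part of height in this closeness was not tested.

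**Figure D4:**
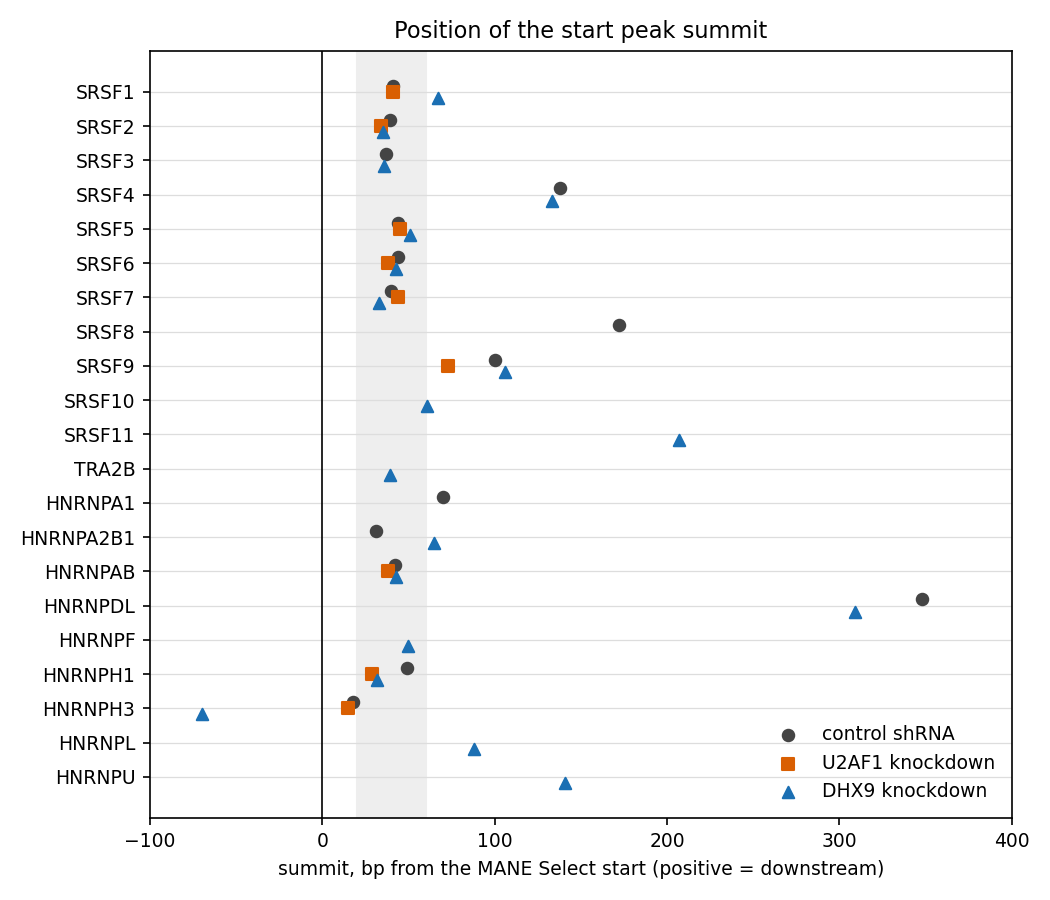
Distance of the start peak summit from the MANE Select start (horizontal axis, bp, positive is downstream) for each member and list; the grey band covers 20 to 60 bp, and HNRNPA0, with summits near 1000 bp, is left out. Most symbols lie in or just right of the band, SRSF4, SRSF8, SRSF11, HNRNPDL and HNRNPU lie at 133 bp or more, and 1 symbol, HNRNPH3 in the DHX9 knockdown list, is upstream at -70 bp.

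Members with a start peak in every list had short transcripts. The MANE Select transcripts of the 9 members in all 3 lists had a median span of 6.63 kb, from 3.22 to 11.1 kb, and those of the other 23 members 16.0 kb. The 10 members without a peak in any list had a median of 33.4 kb, with HNRNPC at 60.3 kb the longest. The medians over all coding genes did not have this order: 24.9 kb for genes in all 3 lists against 22.8 kb for the others, and 20.4 kb for genes without a peak in any list. The spans of the groups overlapped: SRSF4, at 34158 bp, had start peaks in 2 lists and SRSF11, at 31673 bp, in 1, while HNRNPH2, at 5912 bp, HNRNPA3, at 11166 bp, and HNRNPK, at 12133 bp, had none.

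**Figure D5:**
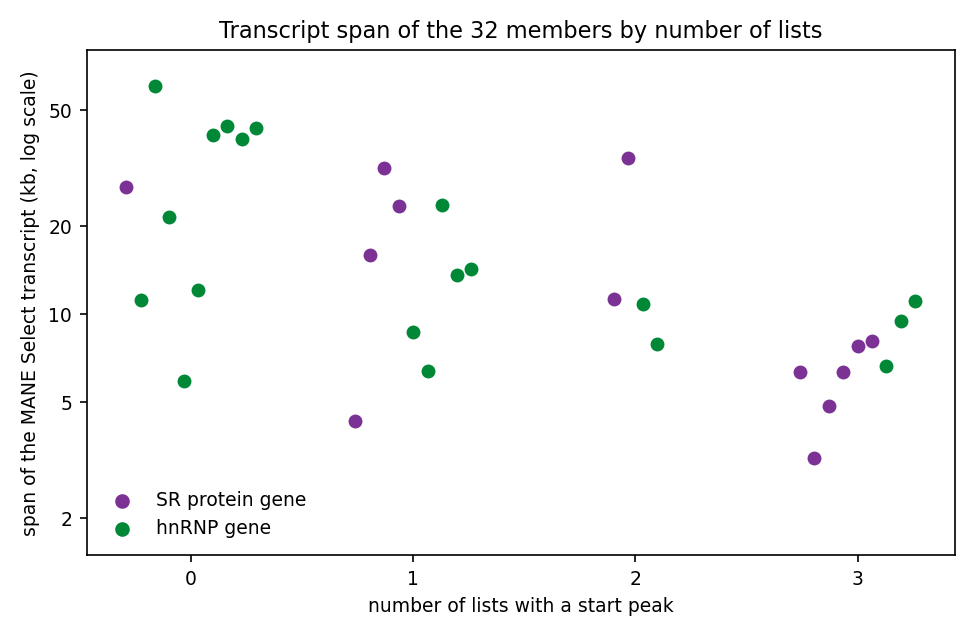
Span of the MANE Select transcript (vertical axis, kb, log scale) of each of the 32 genes by the number of lists with a start peak; points are spread sideways within a group in a fixed order for legibility. The 9 genes in all 3 lists lie between 3.22 and 11.1 kb, and the genes in no list reach 60.3 kb; HNRNPA0 counts as 1 list.

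The promoters of the members were rich in CpG. In the 300 bases from 250 before to 50 after the start, the median ratio of observed to expected CpG was 1.05 in the members, against 0.775 in all coding genes and 0.923 in the coding genes with a start peak in all 3 lists. The median was 1.08 in the 9 members in all 3 lists, 1.04 in the 13 members in 1 or 2 lists and 0.949 in the 10 members without a peak. Over all coding genes the medians of these groups had the same order, at 0.923, 0.900 and 0.695. The median GC content was 65.0% in the members and 63.7% in all coding genes. Among genes with a start peak in all 3 lists it was lower in the members, at 63.3%, than over all coding genes, at 70.3%. SRSF8 stood apart, with a GC content of 38.0% and a CpG ratio of 0.283. In the first 300 transcribed bases of genomic sequence the GC skew, the excess of G over C on the coding strand divided by their sum, was above 0 in 24 of 32 members (75.0%) and in 65.1% of all coding genes. Its median was 0.114 in members in all 3 lists, 0.0691 in members in 1 or 2 lists and 0.154 in members without a peak. Over all coding genes the medians of these groups were 0.0732, 0.0816 and 0.0521.

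TATAAA occurred in the promoter window of 7 of 32 members (21.9%), against 9.71% of all coding genes. On the coding strand, with its first base 35 to 20 bases before the start, the usual place of a TATA box, it occurred in SRSF2 (at -32), SRSF3 (-30), HNRNPAB (-29) and SRSF7 (-27). That is 4 of 32 (12.5%), against 3.90% of all coding genes. Among genes with a start peak in all 3 lists it was 3 of 9 members (33.3%), against 7.31% of all coding genes. The position was examined after the peaks had been seen. SRSF2, SRSF7 and HNRNPAB are 3 of the 4 members printed above for their ranks, and SRSF6, the other one, lacks the motif. HNRNPA0, with high peaks in every list but not eligible for that choice, has no TATAAA in the promoter window either. The NF-Y motif CCAAT occurred in 17 of 32 members (53.1%), against 36.1% of all coding genes. It was in 14 of 19 hnRNP genes and 3 of 13 SR protein genes. By peaks, CCAAT was in 2 of 9 members in all 3 lists, 8 of 13 in 1 or 2 lists and 7 of 10 without a peak. Over all coding genes the shares in these groups were 38.9%, 34.6% and 36.3%, without such an order. The groups of members differ in family, however. Within the hnRNP genes CCAAT was in 1 of 3, 6 of 7 and 7 of 9. Within the SR protein genes it was in 1 of 6, 2 of 6 and 0 of 1. The part of family in the order over all members was not tested. The GC box occurred in 22 of 32 (68.8%, against 61.3%), CCGGAAG in 5 (15.6%, against 14.1%) and GCATGCGC in 3 (9.38%, against 4.27%), namely SRSF7, SRSF10 and HNRNPH1. TGACGTCA occurred in TRA2A alone (3.12%, against 2.69%), and AAGATGGC in none (against 4.05%). A match is a string in the reference and does not show that a factor binds there.

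A list of 37 related genes was examined beside the members: kinases, the importer and SR-related proteins, further hnRNP-type proteins and factors of the 3′ splice site. Start peaks were present at 10 of 37 (27.0%) in control cells, 7 (18.9%) after U2AF1 knockdown and 17 (45.9%) after DHX9 knockdown. For the 18 kinases, importer and SR-related genes the shares were 27.8%, 16.7% and 38.9%. For the 15 further hnRNP-type genes they were 33.3%, 20.0% and 53.3%. The higher share of SR protein genes over hnRNP genes among the members thus did not recur among these relatives. In all 3 lists there were 2 of 37 (5.41%), RBM39 and RBMX, close to the 4.03% of all protein-coding genes. The shares of all protein-coding genes in the single lists were 12.6%, 6.64% and 21.0%, as above. RBM39, an SR-related protein close in sequence to U2AF2, had 5.39-fold (rank 559), 8.42-fold (rank 129) and 3.92-fold (rank 3840). SYNCRIP, a relative of HNRNPR, had 5.18-fold (rank 647) and 4.07-fold (rank 1204) in the control and U2AF1 knockdown lists and none in the DHX9 knockdown list. Its summits lay at -981 and -949 bp, upstream and near the edge of the 1000 bp window. U2AF1, the target of that knockdown, had a start peak of 4.26-fold (rank 1100) in the U2AF1 knockdown list, 4.48-fold (rank 3210) in the DHX9 knockdown list and none in the control list; the control and U2AF1 knockdown lists each held 1 peak inside the gene. The hg38 reference also holds a near-identical copy of this gene, U2AF1L5, so its peaks are uncertain. A polymerase peak at a gene does not measure its mRNA, so this is no check of the knockdown. U2AF2 and SF3B1 had no peak in any list.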

How the data were processed

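POLR2A ChIP-seq of HEK293T cells gave 1 deposited peak list for each of 3 conditions, and each list was treated as 1 unit. The submitters' processing notes name hg38, Bowtie2 2.4.5, deepTools 3.5.1 and MACS2 2.2.7.1, without roles or order. Use of the input, read filters and pooling of replicates are not given in the sources used here. The authors deposited for each peak a score (not used), a fold enrichment (a ratio to the peak caller's background), a −log10 p and a −log10 q, and the distance of the summit from the peak's start. The lowest deposited −log10 q was 1.31 with control shRNA, 1.30 after U2AF1 knockdown and 1.31 after DHX9 knockdown. Depth is unknown, so no interval could be given.

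Summits were assigned to GENCODE version 44 genes with Python 3.11.15. A summit could count for several genes. The assignment was tested on simulated data. All peaks lay on hg38 sequences, with 0 beyond a sequence end. Copies of peak sequence were searched with BLAST+ 2.17.0. Ranks used fold enrichment, ties sharing the best rank. Counts and medians are descriptions, given beside the same over all protein-coding genes. The members, related genes, motifs and markers were chosen with earlier results of these data known. Named with values were the 5 members with the highest start peak in each list, members with peaks in 1 or 2 lists or in none, members with a peak inside the gene, and the 3 related genes highest in the control list, of which 1 is not reported here. Results of SRSF1, SRSF5, SRSF9, U2AF1, U2AF2 and SF3B1, the naming of RBMX, and the peak copies were added after the values were seen. Other settings tried were a −log10 q of at least 5, lists of equal length, start windows of 500 and 2000 bp, MANE Select starts only, ranks by −log10 p, offsets from the nearest transcript start, and stricter sharing between lists.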

Additional observations from a re-analysis of the deposited data

How the results depend on the processing

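Of 103 recomputed values, 99 stayed within 1.5 times of the reported value, 4 moved and 0 reversed. Measured from the nearest annotated transcript start in place of the MANE Select start, the median offset of the highest start peaks was 20.0 bp with control shRNA, 3.00 bp after U2AF1 knockdown and 12.0 bp after DHX9 knockdown, in place of 43, 38 and 51 bp; by construction this offset is the shorter one. With 1730 peaks in each list, 5 hnRNP genes had a start peak in the DHX9 knockdown list in place of 8, by construction from fewer peaks. At a −log10 q of at least 5, SRSF4 left the control list, SRSF1 the U2AF1 knockdown list and SRSF11 the DHX9 knockdown list. With 1730 peaks, SRSF4 and SRSF8 left the control list. HNRNPA0 left the control list at 500 bp and entered both knockdown lists at 2000 bp. The number of members in all 3 lists ranged from 8 to 10. No paired analysis was possible because the labels assign a single peak list to the replicates of a condition, and for the same reason no replicate could be left out. Depth, which limits how many weak peaks a list holds, is unknown.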
